A study of Homo sapiens with 4 samples.

Results

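The amino acid transporters described here are 10 genes of the solute carrier (SLC) families that carry amino acids across the cell surface: SLC7A5, SLC3A2, SLC1A5, SLC1A4, SLC38A1, SLC38A2, SLC7A1, SLC7A6, SLC7A7 and SLC43A1. They were matched by gene symbol, and all 10 were found among the 23622 genes of the deposited RNA-seq table. Bulk RNA-seq was performed on total RNA of MV4-11 cells, a human acute myeloid leukemia (AML) cell line that carries a KMT2A rearrangement and an FLT3 internal tandem duplication. The 2 NC libraries are labelled wild type and untreated, although the headings of the table call them sh_NC and the methods of the study name a control short hairpin RNA (shRNA). The 2 sh-IRF1 libraries came from MV4-11 cells in which interferon regulatory factor 1 (IRF1), a transcription factor of the interferon response, was knocked down with a lentiviral shRNA. According to the methods, infected cells were selected with puromycin. Which hairpin each library received is not given in the sources used here, so an effect of the hairpin itself and an effect of lower IRF1 cannot be told apart. The question was which genes changed when IRF1 was reduced.

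Cells take up amino acids through transporters that differ in substrate and in mechanism. SLC7A5 (LAT1) is a light chain that must pair with the glycoprotein SLC3A2 (4F2hc, CD98) to reach the surface, where it brings in leucine and other large neutral amino acids in exchange for internal ones such as glutamine. SLC1A5 (ASCT2) exchanges glutamine, serine, alanine and other neutral amino acids with sodium, and SLC38A2 (SNAT2) concentrates small neutral amino acids in the cell. Many of these genes are known to be activated by the transcription factor ATF4 when amino acids run short, and by MYC in growing cells, and leucine and arginine in turn switch on the growth kinase complex mTORC1 at the lysosome.

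IRF1 itself was lower in the knockdown. Its normalized counts, that is read counts divided by a size factor of each library, were 762 ± 32.7 (SD, n = 2) in NC and 431 ± 1.58 (SD, n = 2) in sh-IRF1, which is 56.6% of the NC level (log2 fold change -0.82, SE 0.0904, limma adjusted p = 1.69e-10). IRF1 shares 22.9% of its exonic bases with antisense genes, so that part of its counts is uncertain. The libraries held between 17635908 and 18695337 reads assigned to genes, and mitochondrial genes took 3.92% to 4.51% of them. All 12 myeloid markers examined were above the filter on low values in these libraries. Of them 3 were higher in sh-IRF1 and 5 were lower, beside 20.3% and 21.9% of all genes tested, and 4 did not pass the test. LYZ, the lysozyme of monocytes and granulocytes, and the transcription factor SPI1 rose (log2 fold changes 0.85 and 0.17), and myeloperoxidase (MPO) and the receptor FLT3 fell (-1.42 and -0.46), whereas CD33 was 1158 ± 46.1 in NC and 1182 ± 10.8 in sh-IRF1. Of the markers of other lineages, the T cell gene CD3G had no more than 3 reads in any library. The 4 erythroid markers listed were not found by symbol among the deposited genes. The B cell marker CD79A was low but rose from 46.7 ± 5.04 to 220 ± 42.6 (log2 fold change 2.20, SE 0.214, limma adjusted p = 4.46e-12). Among epithelial or packaging cell markers, KRT8 went from 121 ± 35.5 to 176 ± 13.6 (log2 fold change 0.57, SE 0.187, limma adjusted p = 0.0111), and KRT8 and KRT18 together summed to 342.6 and 253.7 in NC and to 391.9 and 361.7 in sh-IRF1. Whether these markers have a part in the results below was not tested.

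To show the start regions of the genes that the results turn on, the RefSeq promoter windows of GRCh38.p14 were read and searched for 3 short motifs on both strands. Each window holds 250 bases before to 50 bases from the start site onward, and 19 windows belonged to the 10 genes. The motifs were the core of the C/EBP-ATF response element bound by ATF4 with its partners (TGATGNAA), the E-box of MYC and related factors (CACGTG) and the element of interferon regulatory factors (GAAA repeated after any 2 bases). The windows below are written 5′ to 3′ on the strand of the gene, with matches to these motifs in capitals. They are shown because SLC38A2 had the most negative log2 fold change of the 10 genes, SLC7A5 and SLC43A1 carry large neutral amino acids and fell, and SLC1A4 and SLC7A1 did not fall.
SLC38A2, chr12:46372724-46373023, minus strand: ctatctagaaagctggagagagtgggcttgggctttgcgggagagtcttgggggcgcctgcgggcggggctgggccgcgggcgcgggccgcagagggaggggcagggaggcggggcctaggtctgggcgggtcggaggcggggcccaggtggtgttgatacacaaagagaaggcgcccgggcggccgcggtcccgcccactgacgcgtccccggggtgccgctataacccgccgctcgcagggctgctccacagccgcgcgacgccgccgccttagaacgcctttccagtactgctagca
SLC7A5, chr16:87869458-87869757, minus strand: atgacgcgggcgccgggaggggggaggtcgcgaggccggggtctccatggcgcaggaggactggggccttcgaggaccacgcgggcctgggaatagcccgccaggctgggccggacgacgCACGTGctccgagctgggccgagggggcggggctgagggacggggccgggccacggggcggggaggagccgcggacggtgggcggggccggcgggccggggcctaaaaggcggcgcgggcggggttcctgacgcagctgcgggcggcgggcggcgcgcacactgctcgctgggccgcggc
SLC43A1, chr11:57515653-57515952, minus strand: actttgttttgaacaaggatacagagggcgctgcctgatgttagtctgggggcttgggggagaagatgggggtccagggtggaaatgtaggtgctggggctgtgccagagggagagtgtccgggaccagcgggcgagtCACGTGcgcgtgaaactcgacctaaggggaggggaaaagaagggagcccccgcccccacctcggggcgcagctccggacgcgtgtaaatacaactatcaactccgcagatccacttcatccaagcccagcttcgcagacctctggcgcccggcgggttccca
SLC1A4, chr2:64989149-64989448, plus strand: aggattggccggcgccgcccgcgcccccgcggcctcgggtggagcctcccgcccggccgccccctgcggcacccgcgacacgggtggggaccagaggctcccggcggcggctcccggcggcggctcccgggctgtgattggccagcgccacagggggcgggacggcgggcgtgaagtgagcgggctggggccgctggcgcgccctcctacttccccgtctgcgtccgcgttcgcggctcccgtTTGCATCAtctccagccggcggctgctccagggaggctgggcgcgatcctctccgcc
SLC7A1, chr13:29595639-29595938, minus strand: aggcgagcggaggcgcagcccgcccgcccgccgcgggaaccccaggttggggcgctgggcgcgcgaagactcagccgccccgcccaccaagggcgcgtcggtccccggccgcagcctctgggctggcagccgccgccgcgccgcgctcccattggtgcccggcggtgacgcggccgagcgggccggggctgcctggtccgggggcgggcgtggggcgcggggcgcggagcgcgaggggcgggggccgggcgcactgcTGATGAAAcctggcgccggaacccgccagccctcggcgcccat

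The window of SLC38A2 held none of the 3 motifs, and bases outside the windows were not searched for any gene. The E-box of SLC7A5 lay 130 to 125 bases before the start site, and that of SLC43A1 lay 112 to 107 bases before it. SLC1A4 held a response element core, TTGCATCA on the strand of the gene, from 7 bases before the start to the first transcribed base, and SLC7A1 held TGATGAAA at transcribed bases 8 to 15. Over all windows, the response element core was found in 5 of the 10 genes (SLC3A2, SLC1A5, SLC1A4, SLC38A1 and SLC7A1), beside 4.46% of 27305 genes, and in 5 of their 19 windows, beside 3.62% of 35116 windows. The E-box was found in 4 of them (SLC7A5, SLC1A5, SLC7A7 and SLC43A1), beside 8.77% of genes, and in 4 windows, beside 7.26% of windows. SLC3A2 and SLC1A5, which held the response element core and whose windows are not printed above, also fell. SLC3A2 held no E-box in its windows, and SLC1A5 held both motifs. Whether a motif goes with the direction of change was not tested. The interferon regulatory factor motif was found in SLC7A7 alone, beside 4.38% of genes, and in 1 window, beside 3.57% of windows. That window was not at the canonical start site of SLC7A7 in the GENCODE annotation. The same holds for the windows with the E-boxes of SLC7A7 and SLC1A5 and with the core of SLC38A1. For SLC3A2 the core was ccTTACATCAgc in its surrounding bases, at transcribed bases 38 to 45 of another annotated start site, and for SLC1A5 it was TGATGCAA, 97 to 90 bases before a start site inside the gene. No matches overlapped each other. A match is a description of the letters only, and binding to these windows was not measured here.

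Of the 10 transporters, 6 were lower in sh-IRF1 than in NC, 1 was higher and 3 did not pass the test at a limma adjusted p under 0.05. By the same rule 42.2% of the 14120 genes tested were called, 21.9% as lower and 20.3% as higher. All 10 passed the filter on low values, which asked for 10 or more normalized counts in 2 or more of the libraries. The median log2 fold change of the 10 genes was -0.29, whereas that of all genes tested was -0.0019. When a log2 fold change beyond 0.5 in size was also required, 2 of the 10 were lower, SLC38A2 and SLC7A7, beside 7.56% of all genes, and 0 were higher, beside 8.27%. For 8 of the 10 genes the libraries of the groups did not overlap, beside 69.2% of all genes. In 6 of these both knockdown libraries were the lower ones, beside 35.0%, and in 2 the higher ones, beside 34.2%. Added up, the 10 genes took 0.498% and 0.499% of the normalized counts in the NC libraries and 0.433% in each sh-IRF1 library. In bulk RNA, fewer cells that express a gene and less of its RNA per cell cannot be told apart.

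**Figure D1:**
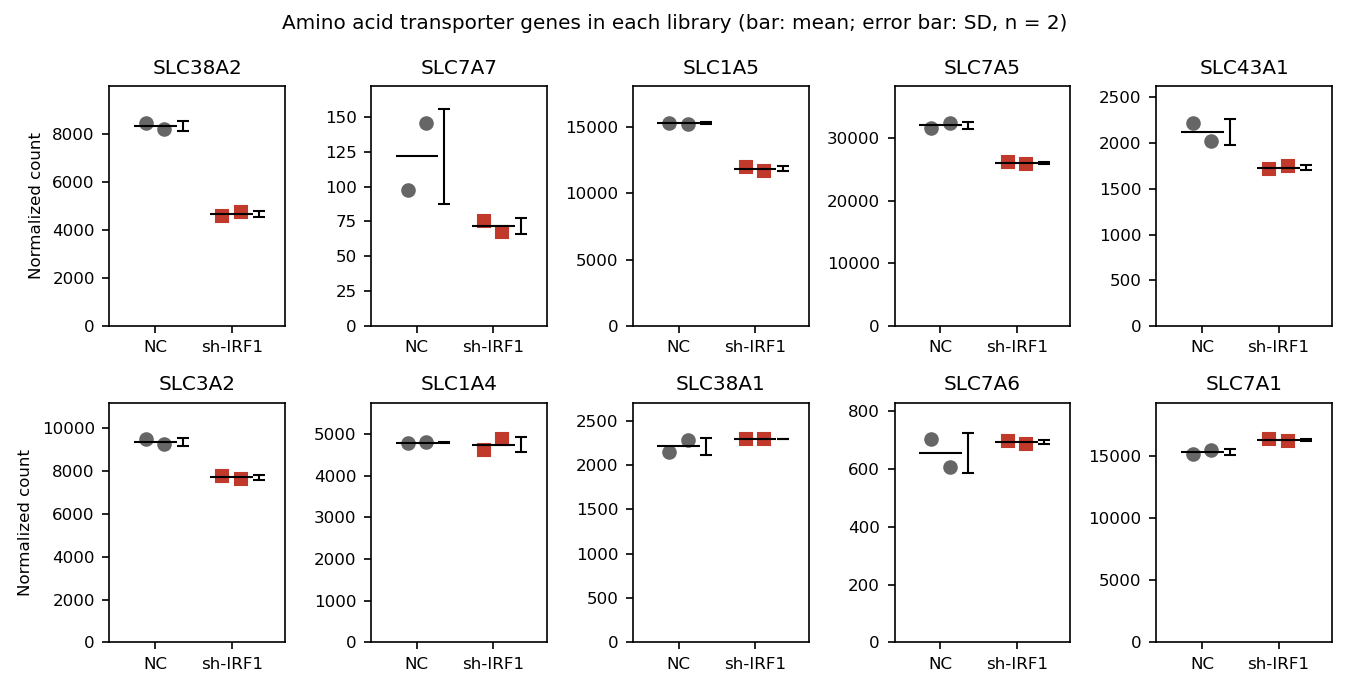
Normalized counts (vertical axes, each from 0) of the 10 transporters in the 2 NC (circles) and 2 sh-IRF1 libraries (squares), with the mean as a bar and the SD beside it. SLC38A2 has a mean of 8324 in NC and 4659 in sh-IRF1, while the points of SLC1A4 and SLC7A6 overlap between the groups.

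The heteromeric exchangers share SLC3A2 as their heavy chain. SLC7A5 (ENSG00000103257, chromosome 16, 87830023 to 87869507, minus strand) had normalized counts of 31704 and 32511 in NC and of 26177 and 25933 in sh-IRF1. Both knockdown libraries were below both controls, with means of 32108 ± 571 and 26055 ± 173, or 81.1% of the NC level. The log2 fold change was -0.30 (SE 0.0230, 95% interval -0.35 to -0.25, limma adjusted p = 2.48e-15). A pseudogene, SLC7A5P1, had 123 reads over the 4 libraries, 0.106% of the reads of SLC7A5 itself. SLC3A2 (ENSG00000168003, chromosome 11, 62856004 to 62888880, plus strand) had 9501 and 9251 in NC and 7797 and 7642 in sh-IRF1. The heavy chain was thus at 82.3% of its NC level in the knockdown, with a log2 fold change of -0.28 (SE 0.0315, 95% interval -0.34 to -0.22, limma adjusted p = 2.74e-10).

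The light chains SLC7A6 and SLC7A7 form the system y+L exchangers with SLC3A2, which pass cationic amino acids out of the cell against neutral amino acids and sodium. SLC7A6 (ENSG00000103064, chromosome 16, 68264516 to 68301823, plus strand) had 703 and 606 in NC and 696 and 687 in sh-IRF1. The groups overlapped, and the log2 fold change of 0.08 did not pass the test (SE 0.0862, 95% interval -0.09 to 0.26, limma adjusted p = 0.466). Of its exonic bases, 55.6% are shared with antisense genes, SLC7A6OS among them, and the strand setting of the counting is not given in the sources used here, so the counts of this gene are uncertain. SLC7A7 (ENSG00000155465, chromosome 14, 22773222 to 22829820, minus strand) had 97.5 and 146 in NC and 75.6 and 67.5 in sh-IRF1. It was the lowest of the 10 genes, and its NC libraries lay further apart than the nearer of them lay from the knockdown. Its log2 fold change was -0.73 (SE 0.226, 95% interval -1.19 to -0.28, limma adjusted p = 0.00741). The call was lost without NC replicate 2 (log2 fold change -0.44, limma adjusted p = 0.225) and without sh-IRF1 replicate 2 (-0.65, limma adjusted p = 0.0887), and the value without NC replicate 1 was -1.02.

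SLC43A1 (LAT3) carries leucine and other large neutral amino acids by facilitated diffusion and needs no heavy chain. SLC43A1 (ENSG00000149150, chromosome 11, 57484534 to 57515780, minus strand) had 2225 and 2024 in NC and 1714 and 1751 in sh-IRF1. The groups did not overlap, and the gene fell to 81.5% of the NC level (log2 fold change -0.29, SE 0.0536, 95% interval -0.40 to -0.18, limma adjusted p = 1.27e-05).

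Among the carriers of glutamine and small neutral amino acids, SLC38A2 and SLC1A5 fell while SLC38A1 and SLC1A4 did not pass the test. SLC38A2 (ENSG00000134294, chromosome 12, 46358188 to 46372773, minus strand) had 8463 and 8186 in NC and 4584 and 4735 in sh-IRF1. Its mean went from 8324 ± 196 to 4659 ± 107, which is 56.0% of the NC level (log2 fold change -0.84, SE 0.0348, 95% interval -0.91 to -0.77, limma adjusted p = 7.57e-25). SLC1A5 (ENSG00000105281, chromosome 19, 46774883 to 46788594, minus strand) had 15308 and 15195 in NC and 11961 and 11692 in sh-IRF1. It was at 77.5% of the NC level (log2 fold change -0.37, SE 0.0277, 95% interval -0.42 to -0.31, limma adjusted p = 1.74e-15). SLC1A5 shares 23.8% of its exonic bases with antisense genes, so that part of its counts is uncertain.

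SLC38A1 (SNAT1), the close relative of SLC38A2 that also carries glutamine, and SLC1A4 (ASCT1), a serine, alanine and threonine exchanger, had small differences. SLC38A1 (ENSG00000111371, chromosome 12, 46183063 to 46270017, minus strand) had 2144 and 2280 in NC and 2291 and 2294 in sh-IRF1. The knockdown libraries were just above both controls, and the log2 fold change of 0.05 did not pass the test (SE 0.0492, 95% interval -0.05 to 0.15, limma adjusted p = 0.422). SLC1A4 (ENSG00000115902, chromosome 2, 64988477 to 65023865, plus strand) had 4783 and 4798 in NC and 4614 and 4874 in sh-IRF1. The knockdown libraries lay on either side of the controls, with a log2 fold change of -0.01 (SE 0.0379, 95% interval -0.09 to 0.06, limma adjusted p = 0.789), whose sign changed with the scaling.

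SLC7A1 (CAT1), the main carrier of arginine and lysine into most cells, was the member that rose. SLC7A1 (ENSG00000139514, chromosome 13, 29509414 to 29595688, minus strand) had 15099 and 15458 in NC and 16319 and 16182 in sh-IRF1. The groups did not overlap, and its mean rose from 15278 ± 254 to 16251 ± 96.7, or 106% of the NC level (log2 fold change 0.09, SE 0.0266, 95% interval 0.04 to 0.14, limma adjusted p = 0.00551). The call was lost when either knockdown library was left out (limma adjusted p = 0.0925 without sh-IRF1 replicate 1 and 0.0546 without sh-IRF1 replicate 2).

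Levels of different genes were compared per kilobase of exonic bases. SLC7A5 had the highest level of the 10, with 6740 ± 120 normalized counts per kilobase in NC and 5469 ± 36.2 in sh-IRF1. SLC1A5 came next with 4577 ± 23.9 and 3549 ± 57.3. By their mean over the libraries of both groups, these were above 99.5% and 99.3% of the 14055 tested genes that had a length. SLC7A1 had 1987 ± 33.1 per kilobase in NC and 2114 ± 12.6 in sh-IRF1, and SLC3A2 had 1467 ± 27.6 and 1208 ± 17.1. SLC38A2 went from 1279 ± 30.1 to 716 ± 16.4 per kilobase. Thus its level came close to that of SLC1A4, which was 690 ± 1.47 in NC and 684 ± 26.5 in sh-IRF1. Next in order were SLC43A1, with 603 ± 40.2 and 491 ± 7.48 per kilobase, and SLC38A1, with 221 ± 9.62 and 229 ± 0.204. SLC7A6 had 86.2 ± 9.01 and 91.1 ± 0.885 per kilobase. By its mean over both groups it stood above 51.3% of the tested genes with a length. SLC7A7 was the lowest with 22.7 ± 6.38 and 13.3 ± 1.07 per kilobase, above 22.7% of these genes by its mean over both groups. In NC, the libraries of neighbours in this order did not overlap. In sh-IRF1 the nearest neighbours were SLC38A2, with 704 and 727 per kilobase, and SLC1A4, with 665 and 702, which differed by little more than their spread. The order depended on the length used: per kilobase of the longest transcript, SLC3A2 had 3298 in NC and 2715 in sh-IRF1 and stood above SLC7A1, and SLC43A1 stood above SLC1A4 in NC, with 845 against 828.

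**Figure D2:**
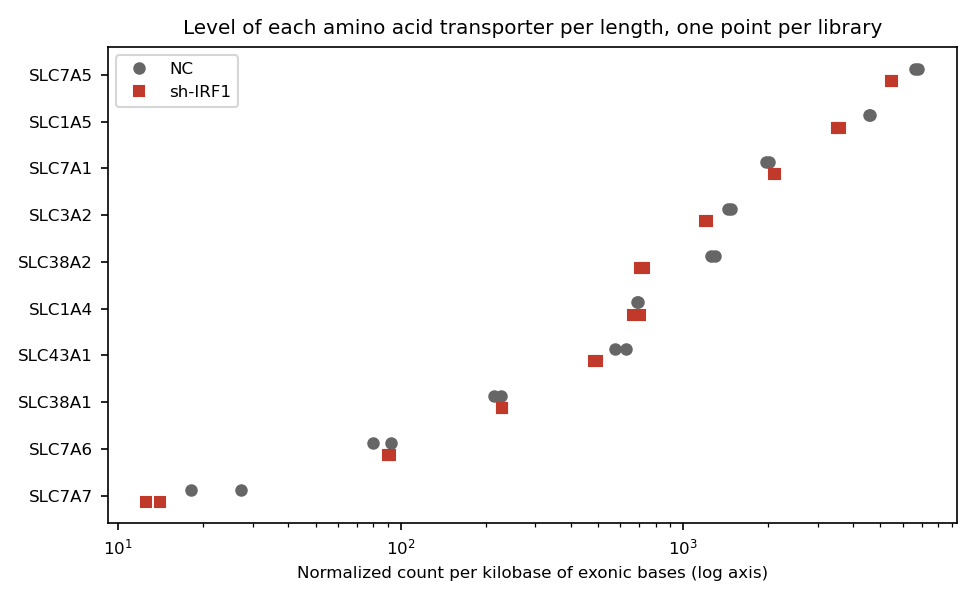
Normalized count per kilobase of exonic bases (horizontal log axis) for each transporter, with a point for each NC (circles) and sh-IRF1 (squares) library. The genes span from 22.7 per kilobase for SLC7A7 to 6740 for SLC7A5 in NC, and the shift of SLC38A2 from 1279 to 716 is wide beside the distance between its replicates.

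Ratios between transporters within a library do not depend on the scaling between libraries. The ratio of SLC7A5 to its heavy chain SLC3A2, per kilobase, was 4.48 and 4.72 in NC and 4.50 and 4.55 in sh-IRF1. The groups overlapped, with a log2 difference of -0.02 (two-sided exact permutation p = 1). With the longest transcripts as lengths this ratio was 2.14 in NC, so its size rests on the annotation, and its change between groups does not. The ratio of SLC7A6 to SLC3A2 was 0.0623 and 0.0552 in NC and 0.0752 and 0.0757 in sh-IRF1, and that of SLC7A7 to SLC3A2 was 0.0122 and 0.0188 in NC and 0.0115 and 0.0105 in sh-IRF1. Their log2 differences were 0.36 and -0.46. The latter was -0.15 without NC replicate 2 and -0.77 without NC replicate 1.

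The ratio that moved furthest was SLC38A1 to SLC38A2. It was 0.165 and 0.181 in NC and 0.325 and 0.315 in sh-IRF1, a log2 difference of 0.89 (two-sided exact permutation p = 0.333). The ratio of SLC1A5 to SLC1A4 was 6.67 and 6.60 in NC and 5.40 and 4.997 in sh-IRF1, a log2 difference of -0.35. SLC7A5 to SLC43A1 was 10.5 and 11.9 in NC and 11.3 and 11.0 in sh-IRF1, with overlapping groups and a log2 difference of -0.0084. SLC7A5 to SLC1A5 was 1.449 and 1.496 in NC and 1.53 and 1.55 in sh-IRF1. With 2 libraries against 2, an exact test cannot give a p below 0.333, which was reached by 5 of the 7 pairs that were compared (Benjamini-Hochberg adjusted p = 0.467), so none of these ratios could pass a threshold of 0.05.

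**Figure D3:**
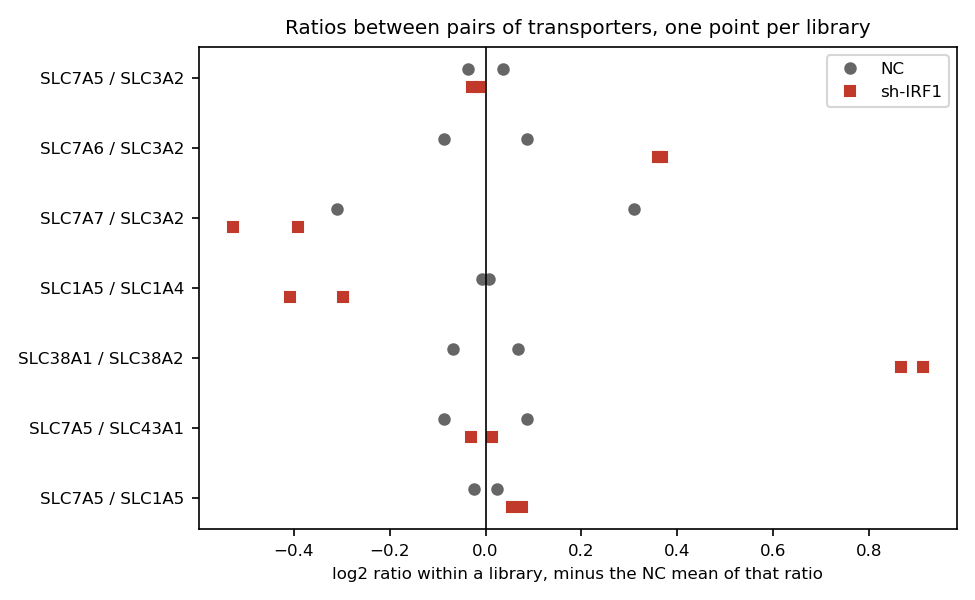
Log2 ratio of pairs of transporters within each library, per kilobase of exonic bases, minus the NC mean of that ratio (horizontal axis), for NC (circles) and sh-IRF1 (squares) libraries. SLC7A5 over SLC3A2 stays near 0 in all 4 libraries, whereas SLC38A1 over SLC38A2 lies 0.89 higher in sh-IRF1.

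Other amino acid transporters were read from the same fit, sorted by their place in the cell. Of 30 other cell surface transporters listed, 17 were found by symbol among the deposited genes and 5 passed the filter. Of these 5, SLC43A2 and SLC6A9 were lower and SLC7A11 was higher, beside 21.9% and 20.3% of all genes tested. The number lower was 1 with DESeq2, without a filter, or without NC replicate 2 or sh-IRF1 replicate 1, and the number higher was 0 without sh-IRF1 replicate 1. SLC43A2 (LAT4), which like SLC43A1 passes large neutral amino acids by facilitated diffusion, had 872 and 896 in NC and 430 and 364 in sh-IRF1. It fell to 44.9% of the NC level (log2 fold change -1.16, SE 0.0922, limma adjusted p = 9.75e-15). SLC6A9, a glycine transporter, had a log2 fold change of -0.30 (SE 0.124, limma adjusted p = 0.0437). SLC7A11, the cystine and glutamate exchanger, which also pairs with SLC3A2, rose by a little, from 1817 ± 4.88 to 2024 ± 67.1 (log2 fold change 0.15, SE 0.0521, limma adjusted p = 0.0139).

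Transporters of the lysosome membrane were mostly higher in sh-IRF1. All 9 that were found by symbol, of 10 listed, passed the filter. Of them 7 were higher and 1 lower, beside 20.3% and 21.9% of all genes tested, and their median log2 fold change was 0.55. With DESeq2, 5 of them were higher and 1 was lower. SLC36A1, which exports small neutral amino acids from the lysosome together with protons, had 801 and 840 in NC and 2149 and 2129 in sh-IRF1. That was 261% of the NC level (log2 fold change 1.38, SE 0.0610, limma adjusted p = 8.24e-24). SLC38A7, a lysosomal glutamine exporter, rose with a log2 fold change of 0.84, and SLC66A1, an exporter of cationic amino acids, with 0.68. SLC15A4 and SLC15A3, which carry histidine and small peptides out of the lysosome, rose by 0.57 and 0.55 on the log2 scale. SLC38A9, the arginine sensor of mTORC1 on the lysosome, was the gene of this list that fell, from 433 ± 39.6 to 302 ± 1.15 (log2 fold change -0.52, SE 0.114, limma adjusted p = 2.06e-04). Of 10 mitochondrial amino acid carriers tested, 3 were higher and 2 lower, beside the same shares of all genes. Their median of 0.03 fell just below 0 with DESeq2 or without a filter. The aspartate and glutamate carrier SLC25A12 and the glutamate carrier SLC25A22 rose (log2 fold changes 0.37 and 0.40), and SFXN1, a mitochondrial serine carrier, and its relative SFXN3 fell (-0.30 and -0.38).

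**Figure D4:**
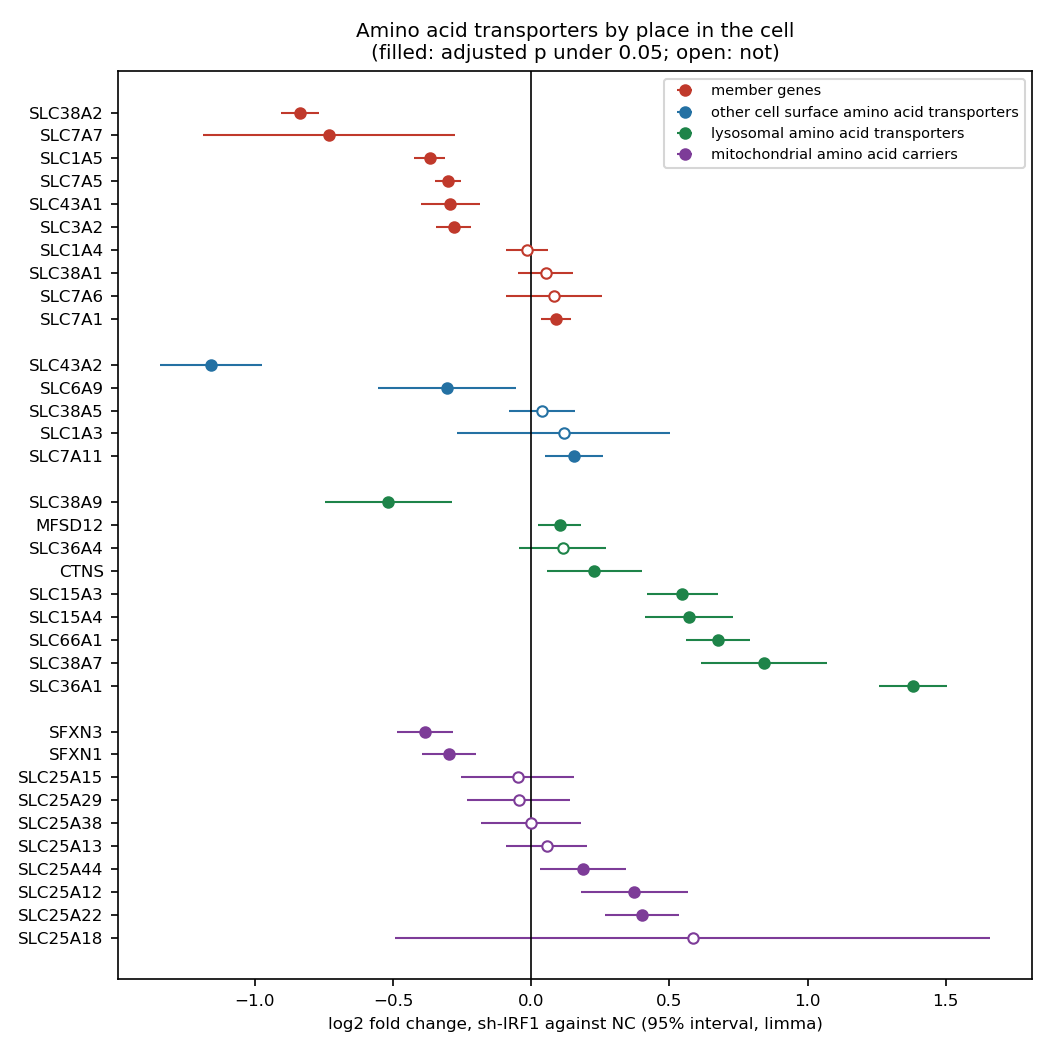
Log2 fold change of sh-IRF1 against NC (horizontal axis) with its 95% interval from limma for amino acid transporters of the cell surface, lysosome and mitochondrion that passed the filter, filled where the adjusted p was under 0.05. Of the lysosomal genes 7 of 9 lie to the right as filled points, while 6 of the 10 transporters described here lie to the left.

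Genes of the response to amino acid shortage, many of them known ATF4 targets, were mostly lower. Of 23 such genes in the table, 20 were lower and 1 was higher, beside 21.9% and 20.3% of all genes tested. Their median log2 fold change was -0.54. With DESeq2, 17 of these genes were lower and 1 was higher. DDIT4, an inhibitor of mTORC1 that stress induces, had 2962 and 2922 in NC and 1148 and 1120 in sh-IRF1 (log2 fold change -1.38, SE 0.0528, limma adjusted p = 3.48e-26). PSAT1, an enzyme of serine synthesis, went from 14892 ± 128 to 8128 ± 3.72 (log2 fold change -0.87, SE 0.0290, limma adjusted p = 1.30e-28). GCN1, a partner of the kinase that senses uncharged tRNA, was the gene that rose (log2 fold change 0.23), and without NC replicate 2 the number higher was 2. ATF4 itself, named after its values were seen, had 9878 and 10049 in NC and 7135 and 6889 in sh-IRF1 (log2 fold change -0.51, SE 0.0318, limma adjusted p = 2.88e-18).

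Of 34 tested genes that pass amino acid levels on to mTORC1, 15 were higher and 6 lower (median log2 fold change 0.16). FNIP2 and FLCN, which together act on the Rag GTPases at the lysosome, rose (log2 fold changes 1.81 and 0.75). SESN2, a leucine sensor that also stands on the list above, fell to 61.7% of the NC level, and LARS1, the leucyl-tRNA synthetase, fell to 75.0%. Of 24 tested enzymes that use glutamine, branched-chain amino acids or arginine, 4 were higher and 14 lower, with a median of -0.17, and without sh-IRF1 replicate 2 the number higher was 2. BCKDHB, a subunit of the branched-chain keto acid dehydrogenase, rose (log2 fold change 0.59). BCAT1, which removes the amino group of leucine, isoleucine and valine, fell to 60.9% of the NC level, and GPT2, the mitochondrial alanine aminotransferase, fell to 62.1%. These counts stand beside the 21.9% of all genes that were lower and the 20.3% that were higher, and no test compared the lists with other genes.

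**Figure D5:**
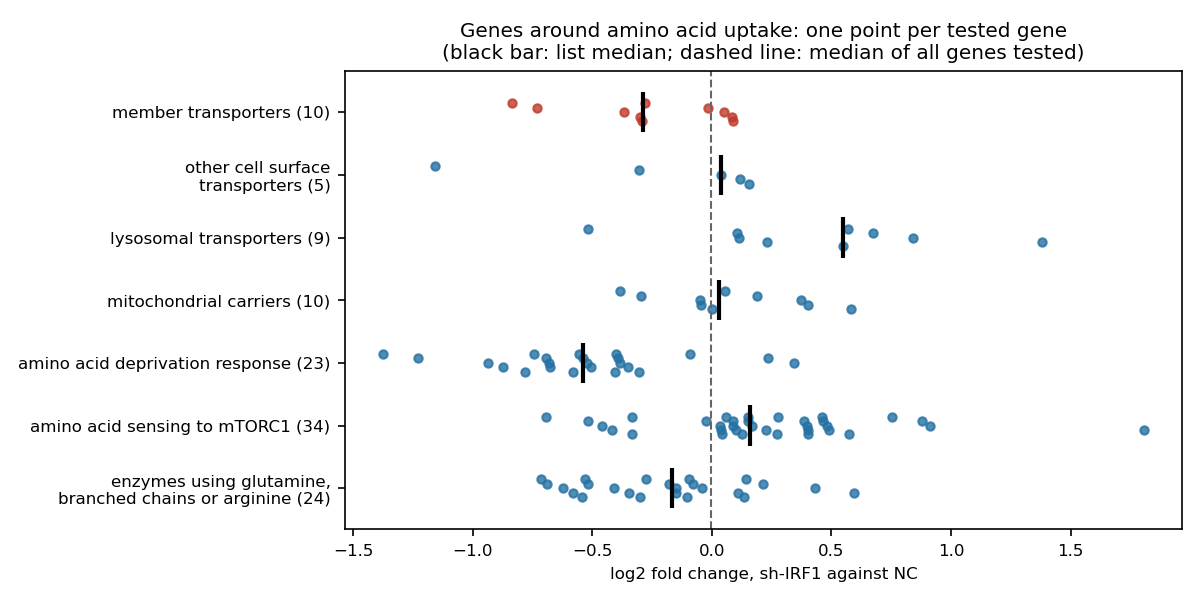
Log2 fold change of sh-IRF1 against NC (horizontal axis) for every tested gene of 7 lists, with the number of genes in parentheses, the list median as a black bar and the median of all genes tested as a dashed line. The medians run from -0.54 for the amino acid deprivation response to 0.55 for the lysosomal transporters, with the 10 transporters at -0.29.

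Genes with a profile over the 4 libraries close to that of SLC7A5 were looked for among the 87 genes with a mean normalized count within a factor of 2 of it. Likeness was the root mean square difference of the centred log2 values. The nearest was PITX1, a homeobox transcription factor, at 0.0198, with 25767 and 27226 in NC and 21423 and 20940 in sh-IRF1. SERBP1, an mRNA-binding protein of the ribosome, followed at 0.0209, and ATP5F1B, the catalytic beta subunit of ATP synthase, at 0.0253. Their log2 fold changes were -0.32, -0.31 and -0.27, beside -0.30 for SLC7A5, and the choice by likeness itself makes these values close.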

How the data were processed

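Libraries of total RNA were built with a TruSeq kit. The authors deposited a gene table of normalized counts, a signal of reads divided by a size factor per library. The submitters' processing notes name HISAT2 2.0.5 and hg38. The counting tool, annotation and strand setting are not given in the sources used here. The values of 1 read were 1.026, 1.027, 0.995 and 0.937, and 100% of values were whole reads within 0.01 read.

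Normalized counts were tested as log2(value + 1) with limma 3.58.1 (trend, robust) in R 4.3.3 on 2 NC against 2 sh-IRF1 libraries, for 14120 genes with at least 10 in at least 2 libraries, and p-values were Benjamini-Hochberg adjusted over all of them, with a threshold of 0.05. The model borrows its spread from all genes, with 2 residual degrees of freedom of its own. Fold changes are on the log2(value + 1) scale. The study states in general that experiments were repeated independently, but the labels do not say that these libraries came from separate cultures, so p-values measure only the spread between these libraries, which may be technical. edgeR 4.0.16 and DESeq2 1.42.0 on the recovered reads, other scalings, filters and pseudocounts, a replicate block and leaving out each library were alternatives. The script was tested on simulated data. Gene lengths, positions and shared exons came from GENCODE 44 (GRCh38), and 23456 identifiers had a symbol.

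The members and lists were chosen with earlier results of these data known. All members are named, with IRF1, the 2 genes with the smallest p in each direction among those called in each other list, other transporters called beyond 0.5 on the log2 scale with a mean of at least 100, and the 3 genes nearest to SLC7A5. Some genes that this rule or the marker lists name are not reported here.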

Additional observations from a re-analysis of the deposited data

How the results depend on the processing

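The calls of SLC7A5, SLC3A2, SLC1A5, SLC38A2, SLC43A1 and IRF1 held under every alternative run on single genes. SLC1A4 changed sign with scaling by total reads (0.030), with upper-quartile scaling (0.0014) and without sh-IRF1 replicate 1 (0.025), and ran from -0.054 to 0.025 when a library was left out. SLC7A6 changed sign without NC replicate 2 and ran from -0.023 to 0.19. Beyond 0.5 on the log2 scale, 2 transporters were lower and 0 were higher, with limma. Without that condition 6 were lower and 1 higher, and leaving out a library gave 5 to 6 lower and 0 to 1 higher. The median of the 10 transporters was -0.28 with TMM scaling and with edgeR, -0.27 with upper-quartile scaling and -0.24 with scaling by total reads, and it ran from -0.29 to -0.24 when a library was left out. Of all genes, 2647 were lower and 3428 higher with scaling by total reads, and 2909 and 3038 with the upper quartile. Scaling by total reads moved the median of all genes by 0.04 and gave medians of 0.59 for the lysosomal, 0.072 for the mitochondrial, -0.49 for the deprivation (with 2 genes higher), 0.20 for the mTORC1 and -0.12 for the enzyme list. Upper-quartile scaling gave 0.56 for the lysosomal list. Of the other cell surface transporters, 1 was lower with DESeq2 (median 0.14), with no filter (median 0.12), and with scaling by total reads or the upper quartile. The mitochondrial median was -0.0017 with DESeq2, and -4.6e-05 with no filter and with a filter of 50. Leaving out a library gave other cell surface transporters with 1 to 2 lower, 0 to 1 higher and medians of -0.094 to 0.073, lysosomal medians of 0.52 to 0.57, deprivation counts of 1 to 2 higher and medians of -0.58 to -0.49, mTORC1 medians of 0.13 to 0.22, and enzyme counts of 2 to 5 higher with medians of -0.24 to -0.17. Leaving out a library leaves 1 in its group, which is then assumed to vary like the other group. The cause of these shifts was not tested.

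Same-numbered libraries did not deviate together (r = -0.0154 across 14120 genes, which are not independent replicates, for the difference of replicates 1 and 2 in NC against sh-IRF1), so the numbers were not read as pairs. With a replicate block, limma called 2903 genes higher and 3147 lower, against 2861 and 3092 without it, and 6 of the transporters lower and 1 higher. With DESeq2, 2312 genes were higher and 2605 lower. DESeq2 gave no adjusted p for 9160 genes. SLC7A7, with 67.5 to 146 normalized counts, is the member whose precision the depth limits most.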
